A study of Canis lupus familiaris with 51 samples.

Results

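Among 11 dog tumours labelled as hemangiosarcoma of the heart, 4 had high levels of the transcript ENSCAFG00000016539 and 7 had almost none. The 11 heart tumours belong to a series of 51 hemangiosarcomas with RNA sequencing, which also holds 32 spleen tumours, 3 liver tumours and 5 tumours with a tissue label of their own. Heart tumours were called high where this gene reached 10 FPKM and low where it stayed under 10 FPKM. The members were thus chosen by the measured level of 1 gene. FPKM scales the fragments of a gene to the length of its transcript and to all fragments mapped in a library. The 4 high tumours came from a neutered male Border Collie Mix of 6 years (heart 1), an intact male Golden Retriever of 10.9 years (heart 7) and neutered male Golden Retrievers of 10.9 and 8.6 years (hearts 8 and 10). The 7 low tumours came from an intact female Bernese Mountain Dog of 5.9 years (heart 2), a spayed female Portuguese Water Dog of 11.1 years (heart 3) and a neutered male Golden Retriever of 8.8 years (heart 4). The others were an intact male and an intact female Golden Retriever of 9.1 and 8.4 years (hearts 5 and 6), a neutered male Labrador retriever of 10 years (heart 9) and an intact male Saluki of 11.2 years (heart 11). No treatment is given in the labels, and all samples were tumours, with no normal heart among them.

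Hemangiosarcoma is a malignant tumour of cells related to the lining of blood vessels. In dogs it arises often in the spleen and in the heart, where the wall of the right atrium and its auricle are a usual site. A piece of such a tumour also holds blood, stroma and immune cells and can hold neighbouring organ tissue, so a transcript level in bulk RNA sums over all of them. Fewer cells of a type and less RNA per cell cannot be told apart in such data. The genes carry Ensembl identifiers that the deposited table does not pair with symbols, and 0 of 16382 matched the gene table used here. The function of each gene is therefore not given, the heart label could not be checked against muscle or vessel markers, and genes other than 2 are described by their order in fold.

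The gene that made the split stood at 221.6 FPKM in heart 1, 493.02 in heart 7, 368.4 in heart 8 and 981.8 in heart 10. In the low group it was at 0.226 FPKM in heart 2, 0.543 in heart 3, 1.013 in heart 4, 0.446 in heart 5, 0.438 in heart 6, 0.312 in heart 9 and 0.184 in heart 11. The low tumour nearest the threshold was heart 4 and the high tumour nearest it was heart 1, so no heart tumour lay between 1.013 and 221.6 FPKM. The group means were 516.2 ± 329.6 FPKM (SD, n = 4) and 0.452 ± 0.278 FPKM (SD, n = 7). These values chose the groups and were given no test. The gene had a median of 0.089 FPKM in the 32 spleen tumours, with values from 0 to 0.854, and at most 0.055 FPKM in the 3 liver tumours.

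**Figure D1:**
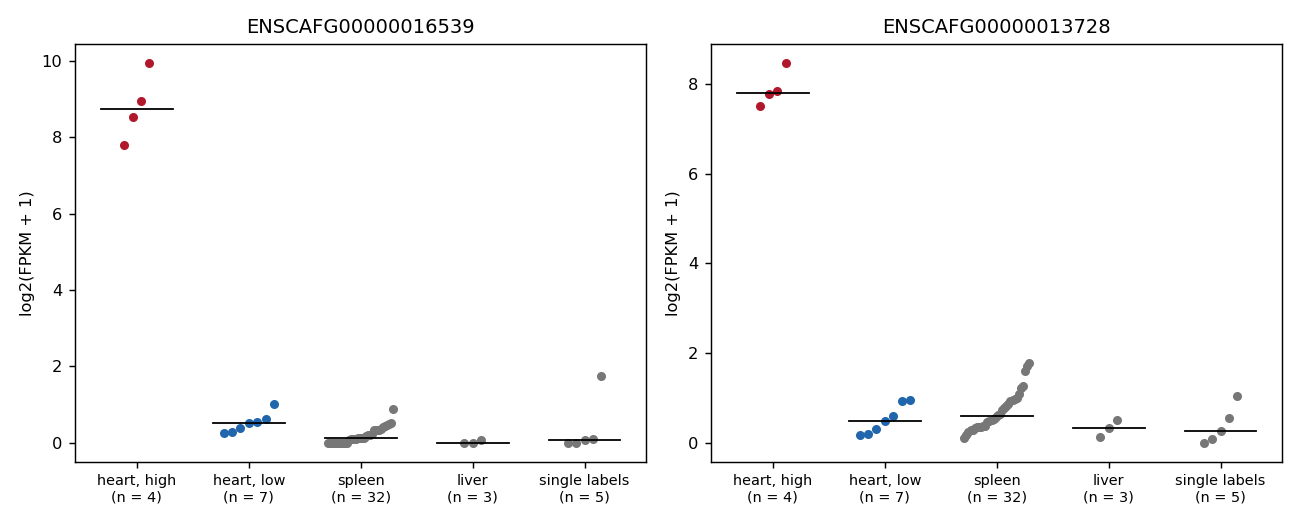
Level of ENSCAFG00000016539, which made the split, and of ENSCAFG00000013728, the gene with the largest fold between the groups, as log2(FPKM + 1) on the vertical axes. Each point is 1 of 51 tumours by group on the horizontal axes, and bars are medians. The 4 high heart tumours stand apart from all other tumours for both genes.

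High and low heart tumours were compared across all other genes to ask which transcripts go with ENSCAFG00000016539. Among 11894 genes tested, 43 were higher in the high tumours and 0 were lower (limma, adjusted p under 0.05, two-sided). The higher genes were 0.362% of those tested. Their log2 fold changes, on the log2(FPKM + 1) scale, ran from 1.17 to 7.38 with a median of 2.55, against a median of 0.014 over all genes tested. In 20 of the 43 genes the log2 fold change was at least 3, and in the other 23 it was between 1 and 3. Before adjustment 563 genes (4.73%) had a p under 0.05. The high tumours were above the low ones in 379 of these (3.19%) and below them in 184 (1.55%). The split is itself a measured level, so each test asks whether another transcript goes with this one across 11 tumours, and not what a treatment or a diagnosis did. With a mean of 5 FPKM or more as the filter 17 genes were called, and in 1 fit with the spleen and liver tumours 65. Leaving out heart 7, heart 8 or heart 10 lowered the number to 26, 27 and 25 genes. Without heart 1, the other high tumour, it was 47, and without 1 low tumour it was 30 to 42.

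**Figure D2:**
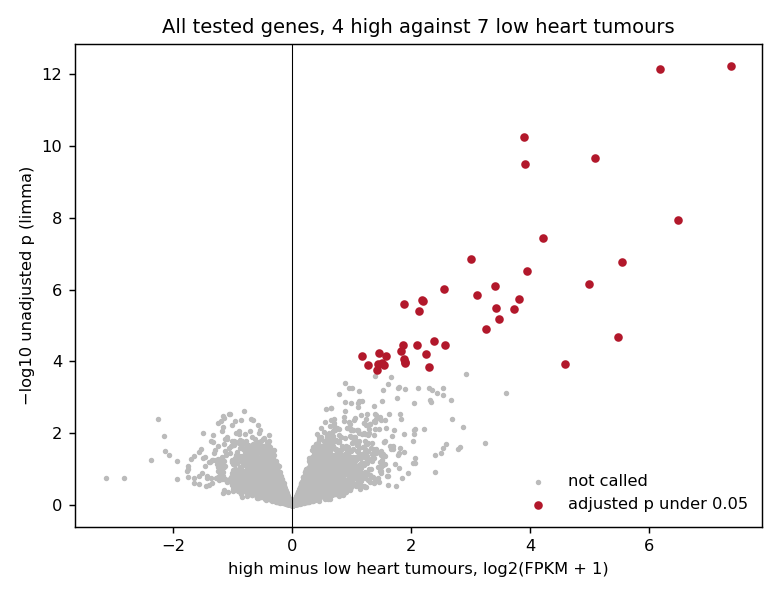
Difference between 4 high and 7 low heart tumours in log2(FPKM + 1), on the horizontal axis, against −log10 of the unadjusted limma p, on the vertical axis, for 11894 genes. The 43 genes with an adjusted p under 0.05, in red, all lie on the side of higher levels in the high tumours.

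ENSCAFG00000013728 had the largest fold of the tested genes. It was at 182.2 FPKM in heart 1, 227.6 in heart 7, 217.7 in heart 8 and 352.9 in heart 10. In the low tumours it ran from 0.123 to 0.939 FPKM with a median of 0.405, so the groups were far apart. The log2 fold change was 7.38 ± 0.23 (SE, limma adjusted p = 4.175e-09), with higher values in 4 of 4 high tumours than in any low tumour. No low tumour reached 1 FPKM, so the gene entered the test only through the high tumours and had to differ to be tested. It was also picked as the largest fold of this same contrast, so its p-value and its separation are a description. With no filter on low values its log2 fold change was also 7.38 (limma adjusted p = 3.802e-08). This gene spread less within the high tumours than ENSCAFG00000016539 did, with a ratio of highest to lowest of 1.94 against 4.43. Its level in the spleen tumours ran from 0.072 to 2.421 FPKM, with a median of 0.512.

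Most of the 43 genes were near 0 in the low tumours. In 26 of them no low tumour reached 1 FPKM. The median high tumour level of these 26 ran from 1.55 to 223 FPKM, with a median of 4.7 over the genes. Of the 43 genes, 17 stayed under 10 FPKM in every high tumour, and 13 were at 10 FPKM or more in every one. The gene 3rd by fold was at 88.98, 91.75, 79.4 and 99.26 FPKM in hearts 1, 7, 8 and 10, and at 0 to 0.881 FPKM in the low tumours. It was the most even of the 43 within the high tumours, and its log2 fold change was 6.19 ± 0.196 (SE, limma adjusted p = 4.175e-09). The gene 12th by fold was listed at 0 in 7 of 7 low tumours and at 17.96, 14.34, 13.12 and 10.89 FPKM in hearts 1, 7, 8 and 10. Here heart 1 was highest and heart 10 lowest, whereas heart 1 was lowest and heart 10 highest for ENSCAFG00000016539. The gene 4th by fold was less even, at 13.98 FPKM in heart 1 against 119.1, 40.5 and 143.7 in hearts 7, 8 and 10, and at most 0.805 in the low tumours. Among the 43 genes, 31 reached 1 FPKM in fewer than 3 low tumours. These include ENSCAFG00000013728 and the genes 3rd, 4th and 12th by fold. The 31 passed the filter on low values, 1 FPKM or more in 3 heart tumours, only with the help of high tumours. The 26 with no low tumour at 1 FPKM thus had to differ to be tested. The rest of the 31 needed at least 1 high tumour at 1 FPKM. The other 12 of the 43 passed the filter in the low tumours alone. With no filter 55 genes were called, 40 of them shared with the 43.

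A smaller set of genes was present in both groups. In 9 of the 43 the median low tumour was at 1 FPKM or more, and the median log2 fold change of these 9 was 3.41. The gene 13th by fold was at 108.4, 191.6, 211.2 and 348.2 FPKM in hearts 1, 7, 8 and 10. It ran from 4.75 to 27.3 FPKM with a median of 13.5 in the low tumours, which made the log2 difference 3.81 ± 0.442 (SE, limma adjusted p = 0.001427). The gene 17th by fold was at 57.78, 93.26, 109.4 and 101.3 FPKM in hearts 1, 7, 8 and 10, and from 3.29 to 13.65 FPKM in the low tumours. The gene 11th by fold was the most even of these in the low tumours, from 1.84 to 3.54 FPKM, and was at 59.69, 60.13, 37.35 and 74.61 FPKM in hearts 1, 7, 8 and 10. For these 3 genes the lowest high tumour was 3.97, 4.23 and 10.55 times the highest low tumour. Other genes came closer to an overlap. In 8 of the 43 the lowest high tumour was less than 2 times the highest low tumour. The narrowest ratio was 1.37, for the gene 24th by fold. The gene 5th by fold was also among these 8. Its low tumours had a median of 1.98 FPKM but heart 6 was at 27.96, against 53 FPKM in heart 1, the lowest high tumour. Apart from the 26 genes with no low tumour at 1 FPKM and the 9 genes above, 8 of the 43 remained. These had a median low tumour under 1 FPKM and at least 1 low tumour above it.

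In 43 of the 43 genes every high tumour was above every low tumour. Over all genes tested, 101 (0.849%) showed that separation in this direction and 26 (0.219%) the reverse. The 43 were called on this contrast, so their separation is a description and nothing is read from it. The 26 genes in the reverse direction had log2 fold changes from -1.34 to -0.14 and a smallest adjusted p of 0.413 (limma), so none was called.

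**Figure D3:**
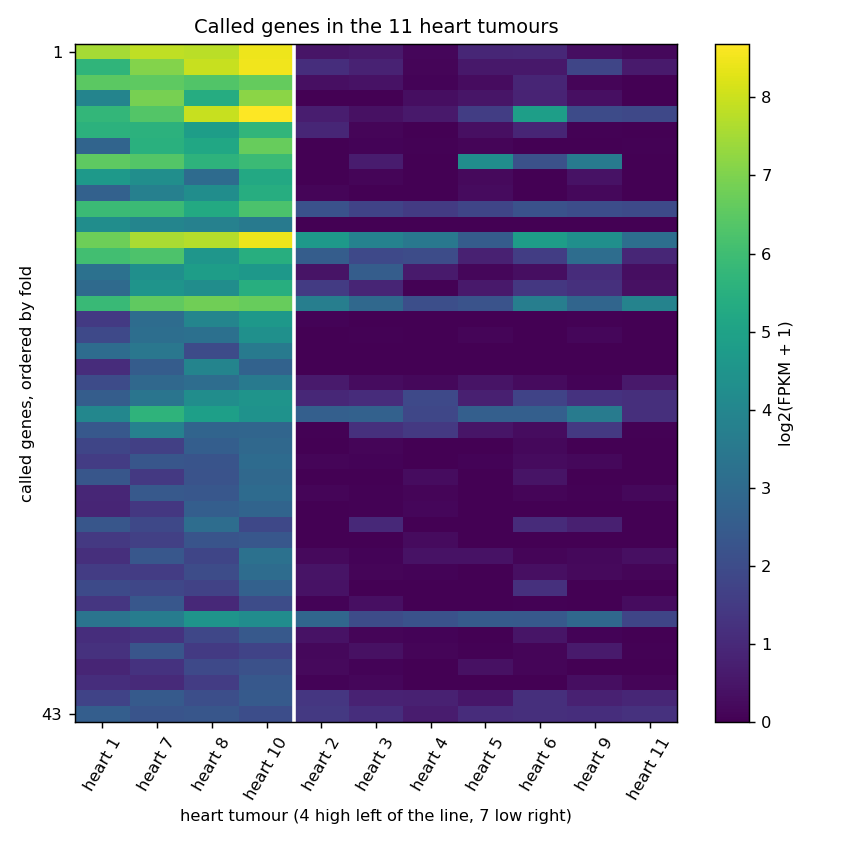
Level of each of the 43 called genes, rows in order of fold, in the 11 heart tumours, columns, as log2(FPKM + 1) on the colour scale. Hearts 1, 7, 8 and 10 are left of the white line. A few rows, such as the 13th and the 17th, are also visible in the low tumours, and most are dark there.

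The 4 high tumours were not equal. Heart 10 had the highest level for 30 of the 43 genes and heart 1 the lowest for 28. The mean log2(FPKM + 1) of the 43 genes was 3.13 in heart 1, 3.78 in heart 7, 3.80 in heart 8 and 4.35 in heart 10. In the low tumours it ran from 0.499 in heart 11 to 0.918 in heart 6, with a median of 0.677. ENSCAFG00000016539 was likewise lowest in heart 1 and highest in heart 10. The ratio of highest to lowest high tumour had a median of 3.68 over the 43 genes, was under 2 for 9 of them and over 5 for 13. The widest ratio, 16.9, was that of the gene 7th by fold, at 5.97 FPKM in heart 1 and 100.8 in heart 10. ENSCAFG00000016539 and the 43 genes together held 0.231%, 0.392%, 0.406% and 0.744% of the summed FPKM of hearts 1, 7, 8 and 10, against 0.00708% to 0.0203% in the low tumours. These genes were thus a small part of the RNA measured even in heart 10.

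The labels and the libraries were set beside the split. The high tumours came from 4 males, and the low tumours from 4 males and 3 females. Golden Retrievers gave 3 of 4 high and 3 of 7 low tumours, and neutered dogs 3 of 4 and 3 of 7. Age was 9.1 ± 2.33 years in the high and 9.21 ± 1.82 years in the low group (SD, exact permutation p = 0.909, adjusted p = 0.909 over 5 traits). Relative depth, solved from the steps in low FPKM values, was 1.05 ± 0.205 in the high and 1.08 ± 0.26 in the low group (SD, exact permutation p = 0.842, adjusted p = 0.909). Genes at 1 FPKM or more numbered from 11308 to 11508 in the high tumours and from 10604 to 11491 in the low tumours (exact permutation p = 0.103, adjusted p = 0.515). The summed FPKM and the share of the 10 highest genes had exact permutation p values of 0.315 and 0.903. Heart 10, with the highest levels, had the lowest relative depth of the 11 heart tumours, at 0.812, and the part of depth in the order of the high tumours was not tested. Across the 11851 tested genes other than the 43, the correlation between libraries had a median of 0.917 over the 6 pairs of high tumours, 0.886 over the 21 pairs of low tumours and 0.9 over the 28 mixed pairs.

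The pattern was also looked at within sex, breed and title. Each fit reused tumours from which the 43 genes were called, so overlap with the 43 was largely fixed in advance and is a description. Among males alone, 4 high against 4 low tumours, limma called 24 genes, of which 22 were among the 43. The mean log2 level of the 43 genes ran from 0.499 to 0.87 in low males and from 0.677 to 0.918 in low females. With sex as a covariate limma called 34 genes, 28 of them shared with the 43. In Golden Retrievers, 3 high against 3 low, it called 15 genes, 14 of them shared. Sample titles begin with CHAD for heart 1 and with DHSA for the other 10 hearts, prefixes that the labels do not explain. Without heart 1 47 genes were called, 38 of them shared. In all of these fits 0 genes were lower, with 801, 676, 561 and 614 genes at an unadjusted p under 0.05 for the covariate, males, Golden Retrievers and DHSA titles. None of the 3 female hearts was high, and the part of sex in the split was not tested.

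The other 40 tumours, which neither the split nor the test used, were examined for the same genes. The mean log2 level of the 43 genes ran from 0.444 to 1.12 in the spleen tumours, with a median of 0.735, and from 0.649 to 0.834 in the 3 liver tumours. It was 1.25 in the metastatic tumour, 1.02 in the metastatic abdominal mass, 0.827 in the tumour of undetermined histogenic origin, 0.625 in the cutaneous tumour and 0.56 in the other abdominal mass. All 40 lay under heart 1, the lowest high tumour, at 3.13. The 43 genes were chosen as high in the 4 high hearts, so their excess over other tumours was largely fixed by that choice. The counts that follow are a description. For 27 of the 43 genes no other tumour reached the lowest high heart tumour, against 32 of all 11894 genes tested (0.269%). For the other 16 genes at least 1 tumour did. No single tumour did so for more than 6 genes, the number in the metastatic tumour and in the metastatic abdominal mass, and the most in a spleen tumour was 5, in spleen 25. The gene 36th by fold was at 1.02 to 4.15 FPKM in the high hearts and reached 299 FPKM in spleen 20. This was a different range from that of the gene 3rd by fold, whose highest value in the 40 tumours was 1.88 FPKM against at least 79.4 in the high hearts.

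**Figure D4:**
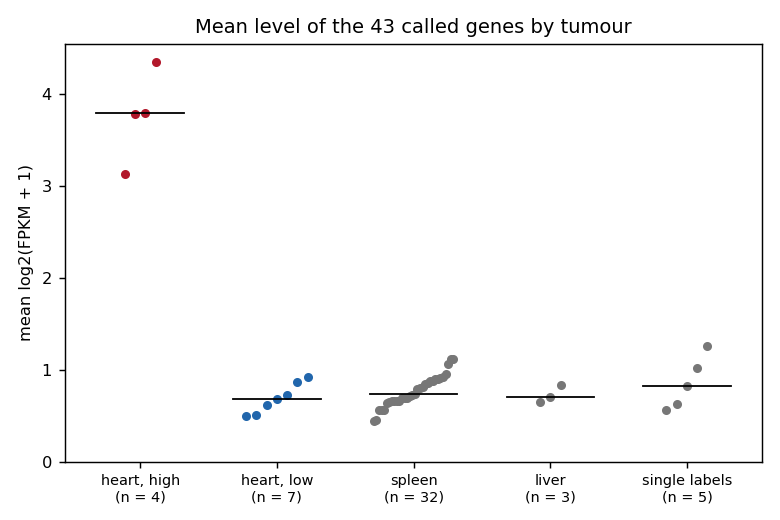
Mean log2(FPKM + 1) of the 43 called genes on the vertical axis, 1 point per tumour by group on the horizontal axis, with bars at the group medians. The high hearts run from 3.13 to 4.35, and no tumour of another group exceeds 1.25.

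Each heart group was then compared with the 32 spleen tumours in 1 fit that also held the liver tumours. Both comparisons share the spleen tumours, so their values stand side by side with no correlation between them. High hearts differed from spleen in 75 of 12886 genes, all higher in heart (0.582%), with 0 lower and 659 genes at an unadjusted p under 0.05 (5.11%). With array weights, which weigh down libraries far from the fit, the count was 357, of which 273 were higher and 84 lower, and with a mean of 5 FPKM or more as the filter it was 16. Low hearts differed from spleen in 0 genes (limma, smallest adjusted p = 0.0558), with 1063 genes at an unadjusted p under 0.05 (8.25%), 566 higher and 497 lower. Array weights gave 22 genes for the low hearts. The low group was the larger of the heart groups, with 7 tumours against 4. Without heart 4, 5, 7 or 11 the low heart count was 2, 6, 3 and 3, where heart 7 is a high tumour that entered only through the shared spread. The 43 genes were chosen as high in these same 4 hearts, so their excess over spleen in the high hearts was largely fixed by that choice and is a description. Of the 43 genes, 37 (86%) were called between high hearts and spleen, and these made up 49.3% of the 75. The median log2 difference of the 43 genes from spleen was 2.47 for high hearts and -0.07 for low hearts, against medians of 0.007 and -0.008 over all genes. ENSCAFG00000013728 stood 7.19 ± 0.226 above spleen in high hearts (SE), and differed from it by -0.19 ± 0.178 in low hearts (SE, limma adjusted p = 0.762). Low hearts ranged from -0.99 to 1.1 over the 43 genes and none was called.

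**Figure D5:**
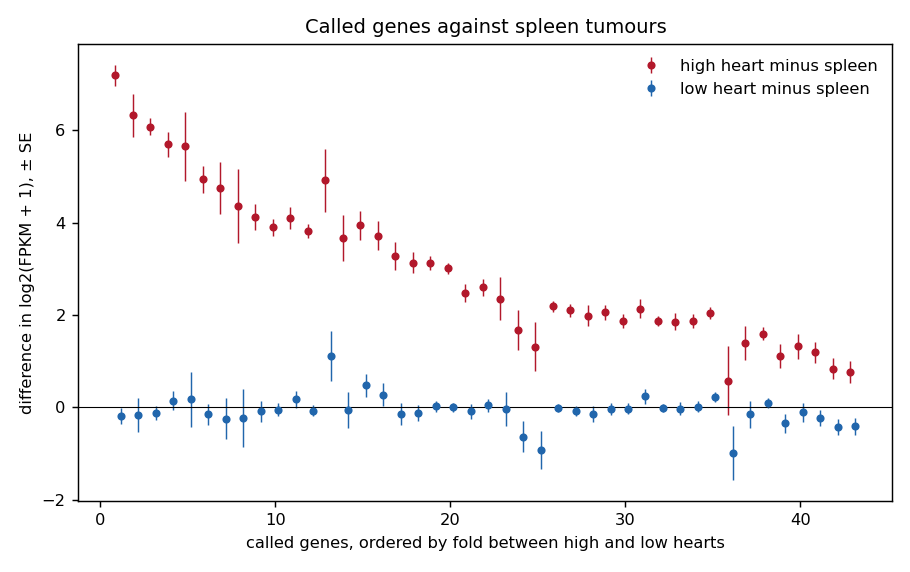
Difference from the 32 spleen tumours in log2(FPKM + 1), with its SE, for high hearts in red and low hearts in blue. The 43 called genes are ordered on the horizontal axis by their fold between high and low hearts. High hearts range from 0.58 to 7.19, and low hearts lie around 0, from -0.99 to 1.1.

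Broad groups of genes were described with modules, sets of genes with correlated levels over the 32 spleen tumours. These were built without any heart tumour, by correlation among the 3000 most variable genes in spleen, and have no names. There were 18 modules with 2027 genes, and 4 of the 43 called genes lay in them. Over all 11894 genes tested 3.19% were higher and 1.55% lower at an unadjusted p under 0.05, the shares against which counts of module members stand. The largest, with 499 genes, had a mean level of 2.92 ± 0.6 in high and 2.65 ± 1.01 in low hearts (SD), and 1 of its 446 tested genes was called. The next, with 314 genes, was at 4.96 ± 0.38 in high and 4.68 ± 0.57 in low hearts (SD), with 0 called and 18 of 314 genes higher at an unadjusted p under 0.05. In both, the groups overlapped. The module with the widest median difference, singled out after its values were seen, held 25 genes and differed by 1.48 on the log2 scale. It ran from 3.36 to 4.61 in high and from 1.21 to 4.22 in low hearts, an overlap, and 0 of its genes were called, with 12 of 25 higher at an unadjusted p under 0.05, against 3.19% of all genes. These genes were correlated by construction, so they do not count as 12 separate results. A module of 68 genes, also picked after its values were seen, held 2 of the called genes. Of its 48 tested genes, 12 were higher at an unadjusted p under 0.05, again against 3.19% of all genes. The 12 include the 2 called genes and were likewise correlated by construction. The mean level of this module ran from 1.57 to 2.27 in high and from 0.97 to 1.76 in low hearts, an overlap. Other modules leaned the other way. Singled out after their values were seen, modules of 27 and 64 genes had median differences of -0.576 and -0.409. Of their tested genes, 4 of 27 and 6 of 63 were lower at an unadjusted p under 0.05, against 1.55% of all genes. The groups overlapped in both modules, and 0 of their genes were called.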

How the data were processed

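The authors deposited 1 table of FPKM values, with 16382 genes and 51 tumours. The submitters' processing notes name FastQC 0.11.2, TopHat 1.4.1, Cuffdiff and the build CanFam3.1. Annotation, strand setting, filters and further scaling: not given in the sources used here. TruSeq libraries were made from column-purified total RNA, per the labels' protocols. Tumours were grouped by tissue label and numbered in accession order, which pairs nothing. Since separate dogs are not stated for all tumours, p-values reflect the spread among these samples. Groups, lists and tests were chosen with earlier results of these data known.

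Values were analysed as log2(FPKM + 1), which understates the change of low genes. A gene entered a fit when 3 or more of its tumours reached 1 FPKM, and was tested with limma 3.58.1 in R 4.3.3 (trended empirical Bayes, Benjamini-Hochberg, threshold 0.05), without ENSCAFG00000016539. The main fit held 11 heart tumours and no covariate, and the spleen comparisons held 46 tumours. Traits were compared with exact two-sided permutation tests (scipy 1.17.1). Named genes were to be the called gene with the largest rise and the 2 with the largest falls; none fell. The marker lists fixed for cell types could not be scored without symbols. With no fragment counts, no counting interval was computed. Relative depth was solved from the steps of 3061 low genes, and 100% of library pairs lay within 0.05 (log2) of the solution. It ran from 0.503 to 2.04 in the 51 libraries. Scripts were tested on simulated data. Modules were clusters of 25 or more genes (average linkage, cut at a correlation of 0.5). Pseudocounts, filters, scalings, weights, covariates and subsets were tried as alternatives.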

Additional observations from a re-analysis of the deposited data

Results flagged for a closer look

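In the metastatic tumour, which entered no comparison, ENSCAFG00000016539 was at 2.337 FPKM, above the highest of the 32 spleen tumours at 0.854 FPKM and far under the lowest high heart at 221.6 FPKM. In the same tumour the mean log2(FPKM + 1) of the 43 called genes was 1.254, above the highest spleen tumour at 1.12. It is a single tumour with no replicate, and its part in other patterns was not tested. Within the high and the low hearts, 16 sets of values (2 genes, the mean of the 43 and 5 library or dog traits in each group) were examined for a tumour far from the rest, and 0 were found. With groups of 4 and 7 tumours such a search can miss an outlying tumour, so no evenness of the groups is read from it.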

How the results depend on the processing

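Over 24 distinct other settings (leaving out heart 1 and keeping DHSA titles only are the same fit) the 43 genes were higher in the high tumours wherever they were tested. Each setting reused tumours from which the 43 were called, and in 43 of the 43 every high tumour was above every low tumour. This direction was thus largely fixed in advance, and the calls that follow for the 43 are a description. Of the 43 genes, 11 were called in every setting, and 23 in each of the 11 fits that left out 1 heart tumour. Between high and low hearts 17 genes were called when the mean had to reach 5 FPKM, where 20 of the 43 were tested, 24 in males, 15 in Golden Retrievers and 65 in 1 fit with spleen and liver tumours. Leaving out 1 heart tumour gave 25 to 47 genes, with 1 lower gene without heart 4 and 1 without heart 5. Against spleen, high hearts had 16 genes under that mean filter, 357 with array weights (273 higher, 84 lower) and 51 to 90 without 1 heart tumour. Low hearts had 1 with a pseudocount of 0.1, 22 with array weights, 1 with sex as a covariate and 0 to 6 without 1 heart tumour. The cause of these moves was not tested, except that the subsets held fewer tumours. ENSCAFG00000013728 kept its call in all 24, with limma adjusted p from 4.695e-26 to 0.00128. Its log2 fold change ran from 7.19 to 7.51, apart from 8.95 with a pseudocount of 0.1. A fit on the level of the split gene gave it a slope of 0.88 per log2 unit. This gene was picked as the largest fold of the main contrast and entered that test only through the high tumours. Its calls in refits of the same tumours were largely fixed by that choice and are a description. No paired analysis was possible because replicate numbers follow accession order. Depth is known only in relative terms, so no detection limit is given for genes listed at 0.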
